A study of Homo sapiens with 8 samples.

Results

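The cells described here lay in the last 25% of S phase in a single-cell map of DNA synthesis, and CFAP20-KO cells were compared with Wild-Type (WT) cells of the same plate. Members were chosen from the values themselves, by where each cell carried its label. Cells with at least 5000 labelled molecules on chromosomes 1 to 22 were placed in order along axis 1 of a correspondence analysis, run on their counts in autosomal bins of 500 kb, with the end that held the higher share of chromosome 19, a gene-rich chromosome, set as the start. The position of a cell was its rank divided by the number of cells, and cells with a position over 0.75 were members, here called late cells. They numbered 229, of which 110 were WT and 119 KO, among 914 ordered cells and 3023 wells. The other 685 ordered cells are called the other cells.

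In S phase a cell copies its genome in a fixed programme. Open, gene-rich chromatin is copied first, and compact, gene-poor chromatin, DNA near the centromeres and, in female cells, the inactive X chromosome are copied late. Very long genes that sit in late DNA include many of the common fragile sites, which break when replication is slowed. CFAP20 is a conserved protein known from cilia and flagella, and the series title places it at stalled RNA polymerase II ahead of replication forks.

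The study used RPE-1 hTERT, a human retinal pigment epithelial line made immortal with telomerase, as WT and as CFAP20-KO. Both genotypes were given EdU, a thymidine analogue taken up into new DNA, at 10 µM for 15 min with no other treatment, and were fixed in ethanol and sorted into 8 plates with both genotypes on each. In scEdU-seq the labelled DNA fragments of each sorted cell are sequenced, so each molecule marks DNA copied during the pulse and carries no information on expression. The sources used here do not state the number of KO clones, how wells were assigned a genotype, or whether plates were separate cultures. The p-values therefore cover the spread among these 8 plates and no more. Genotypes were read from the files, since the titles put both on each plate whereas the genotype entry of the labels reads CFAP20-KO throughout.

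The 8 plates held 1746074 to 4181841 molecules each. Late cells held 4855386 autosomal molecules, 23.3% of those of all ordered cells. A plate had 12 to 35 late cells and a library, meaning the late cells of 1 genotype on 1 plate, had 6 to 20 cells and 66543 to 532604 molecules. The plates used the same 378 well barcodes, 371 of which carried both genotypes on different plates, and no cell name occurred on more than 1 plate. Of the autosomal molecules of late cells, 11.3% lay at the same base and direction as a molecule in the well of the same barcode on another plate, against 2.38% for wells of other barcodes. This share was 10.5% in WT and 12.5% in KO, and 4.76% to 26.4% per cell. Values without such molecules are given beside many of the results. With them removed 222 cells were late, and 219 of these were also late with all molecules.

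Axis 1, which chose the members, held 22.3% of the variation and axis 2 held 12.4%. What the members shared outside the bins used for the order was a rising share of chromosome X, which the order did not use. The median share of X among the molecules of a cell was 2.07% in the first of 10 equal groups along the order, 5.67% in group 8, 10.5% in group 9 and 18.3% in group 10. Over all late cells the median was 12.5%, with a range of 3.27% to 44.5%. Of these, 4 cells, 3 of them KO, had more than 36% of their molecules on X, at 39.5% or more, and the next cell had 35.1%. The share of contigs not placed on a chromosome, where satellite and other repeated DNA is often found, had a median of 0.613%, 0.721%, 1.56% and 2.82% in bands 1 to 4 of the order, each 25% of the cells, of which band 4 is the late cells. The 20 cells just inside the limit had a median X share of 6.24% (4.03% to 12.1%) and 9 of them were KO; the 20 just outside had 5.28% (2.91% to 10.0%) and 16 were KO.

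**Figure D1:**
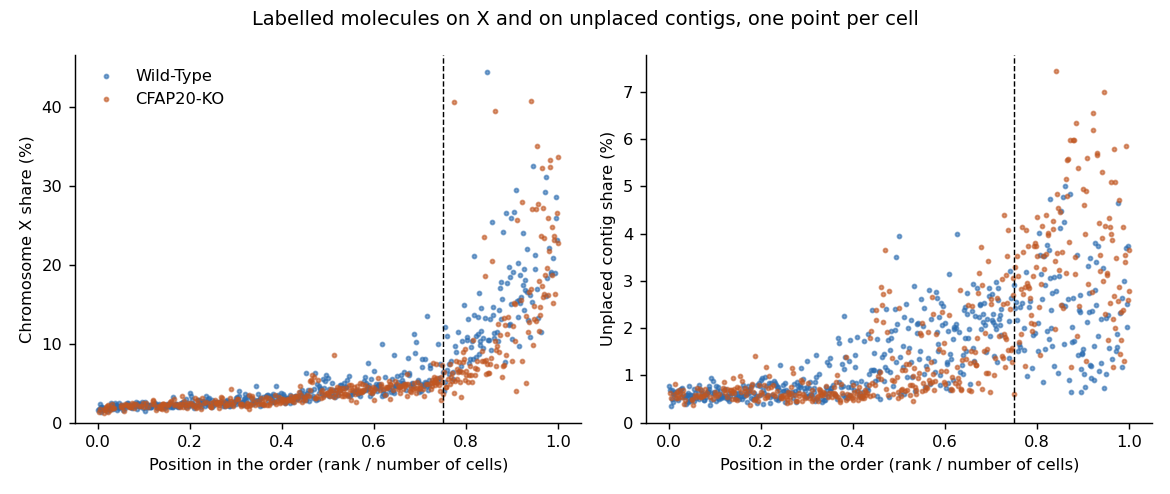
Percent of a cell's molecules on chromosome X and on unplaced contigs (vertical axes) against its position in the order (horizontal axis, rank divided by number of cells), 1 point per cell in the colour of its genotype; the dashed line at 0.75 marks the start of the late cells. The median X share rises from 2.07% in the first of 10 equal groups to 5.67% in group 8, 10.5% in group 9 and 18.3% in group 10, with single cells spread widely around these medians, with 4 cells above 36%.

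Late KO cells carried fewer labelled molecules than late WT cells on every plate. The mean per cell on a plate was lowest at 14926, in the middle at 25854 and highest at 31359 in WT, and 11091, 16716 and 21658 in KO. The ranges overlapped, and KO was the lower of each pair. The means were 25380 ± 5059 in WT and 16509 ± 3030 in KO (SD, n = 8 plates), a 1.53-fold difference (log2 KO over WT -0.61 ± 0.14, lower on 8 of 8 plates, adjusted p = 0.0143 by the exact sign-flip permutation test, two-sided, adjusted over 11 values). The smallest p that 8 plates allow is 0.00781 before adjustment. Without the molecules shared between plates the log2 difference was -0.52 (exact permutation, adjusted p = 0.0246). The other cells showed the same direction, with 26318 in WT and 18917 in KO (log2 -0.47 ± 0.15, 8 of 8 plates lower). The difference between late and other cells was -0.15 ± 0.09 on the log2 scale, below 0 on 8 of 8 plates (exact permutation test, adjusted p = 0.0195 over 10 differences), and -0.03 (adjusted p = 0.938, same exact test) without shared molecules.

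The share of ordered cells that were late was 22.4% ± 5.76 in WT and 27.4% ± 6.65 in KO (SD, n = 8). Over the plates it was lowest at 11.5%, in the middle at 24.3% and highest at 28.6% in WT, and 14.3%, 27.3% and 34% in KO. The difference of 5.03 percentage points, positive on 6 of 8 plates, did not pass the test (exact permutation, adjusted p = 0.0773), and was 3.58 points without shared molecules (adjusted p = 0.234, same exact test). Within the late cells the mean position was 0.874 ± 0.0169 in WT and 0.879 ± 0.0237 in KO, and the difference of 0.0053 ± 0.0211 was within the spread between plates. Among the other cells, bands 1, 2 and 3 held 139, 121 and 113 WT cells and 89, 108 and 115 KO cells. The other KO cells thus held fewer cells of band 1. Values of the other cells, and differences between late and other cells, were not adjusted for this, and its part in them was not tested.

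Along the chromosome, labelled molecules of a cell lie in tracks where forks moved during the pulse. Track width was the distance where the surplus of molecule pairs within a cell had dropped to 50% of that seen at 5 to 10 kb. In late cells it was 15.3 kb at the lowest plate, 15.5 kb in the middle and 16.2 kb at the highest in WT, and 15.6, 15.9 and 17.4 kb in KO. The ranges overlapped, and KO was wider on 7 of 8 plates. The means were 15.6 ± 0.299 kb and 16.1 ± 0.610 kb, a difference of 0.49 ± 0.63 kb (SD, n = 8; exact permutation, adjusted p = 0.0322). The call ended when any of plates 1, 2, 3, 5, 7 or 8 was left out, with a lowest difference of 0.28 kb without plate 3. Without shared molecules the difference was 1.33 kb (exact permutation, adjusted p = 0.0246).

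Among the other cells width was 15.4 ± 0.329 kb in WT and 17.3 ± 0.365 kb in KO (SD, n = 8), with no overlap between the plates of the genotypes. The late difference was smaller than that of the other cells by 1.49 ± 0.79 kb, on 7 of 8 plates (exact permutation, adjusted p = 0.0313). The call ended without shared molecules (-0.75 kb, exact permutation, adjusted p = 0.221) and when any of plates 1, 2, 4, 5, 6, 7 or 8 was left out, with values between -1.55 and -1.36 kb. The level of width in late cells depended on 24 bins of very high count. Without these bins it was 20.7 ± 1.40 kb in WT and 21.7 ± 1.03 kb in KO in late cells. In the other cells it was then 15.4 ± 0.360 and 17.5 ± 0.439 kb. The levels of late and other cells given before that cannot be compared as track widths alone.

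The number of labelled regions per cell, estimated from the same pairs, was lower in late cells than in the other cells in both genotypes. Late WT cells had 1609 regions at the lowest plate, 1992 in the middle and 2967 at the highest, and late KO cells 582, 1365 and 2203. The means were 2034 ± 418 and 1411 ± 612, against 6454 ± 268 and 4974 ± 293 in the other cells. KO was lower on 5 of 8 plates (log2 -0.64 ± 0.66), which did not pass (exact permutation, adjusted p = 0.0764). A call appeared under other settings: without 24 bins of very high count KO was lower on 8 of 8 plates, 3060 ± 438 against 3718 ± 489 (log2 -0.28 ± 0.08, exact permutation, adjusted p = 0.0123), and without shared molecules the log2 difference was -0.41 (adjusted p = 0.0382, same exact test). It was -0.14 among cells of 10000 to 25000 molecules (exact permutation, adjusted p = 0.782), and with at least 10000 molecules -0.30 (adjusted p = 0.289, same exact test).

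Chromosome X took a smaller share of the label in late KO cells. The share was 11.3% at the lowest plate, 14.9% in the middle and 15.6% at the highest in WT, and 7.99%, 12.2% and 15.0% in KO. The ranges overlapped, and KO was lower on 7 of 8 plates. The means were 14.4% ± 1.44 and 12.3% ± 2.18, a difference of -2.03 ± 1.35 percentage points (SD, n = 8; exact permutation, adjusted p = 0.0246), and -2.32 without shared molecules (adjusted p = 0.0322, same exact test). Among cells of 10000 to 25000 molecules the difference was -3.74 points and did not pass (exact permutation, adjusted p = 0.0844). It was -0.85 points when cells were ranked within genotype (exact permutation, adjusted p = 0.0382) and -3.08 with at least 10000 molecules (adjusted p = 0.0246, same exact test). In molecules per cell X held 4257 ± 1021 in WT and 2341 ± 668 in KO, lower on 8 of 8 plates (log2 -0.88 ± 0.21, exact permutation, adjusted p = 0.0156 over 6 added values). X took 3.62% ± 0.249 and 3.37% ± 0.159 in the other cells.

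The X difference was greater in late cells than in the other cells by -1.77 ± 1.43 percentage points, on 7 of 8 plates (exact permutation, adjusted p = 0.0391). That call ended without shared molecules (-2.0, exact permutation, adjusted p = 0.0781) and when any of plates 1, 2, 3, 4, 5, 7 or 8 was left out, with values between -2.02 and -1.53. In the earlier 50% of the late range X held 11% ± 0.955 in WT and 8.25% ± 1.90 in KO, lower on 8 of 8 plates (difference -2.74 ± 1.65, exact permutation, adjusted p = 0.0208 over 8 values). In the later 50% it held 18.1% ± 1.71 and 16.5% ± 1.65, lower on 7 of 8 plates (-1.67 ± 1.49, adjusted p = 0.0469 by the same exact test). The second of these calls ended when any of plates 1, 2, 3, 5, 6, 7 or 8 was left out, with differences between -1.85 and -1.33 points.

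The difference on X was not even along the chromosome. From 120 Mb to the end X stood at 6.77 ± 1.45 times the median autosomal window of its library in late WT cells and at 4.27 ± 1.35 times in late KO cells (log2 KO over WT of the share -0.92 ± 0.27, lower on 8 of 8 plates). Up to 120 Mb it stood at 3.56 ± 0.719 times and 4.40 ± 1.20 times (log2 of the share 0.07 ± 0.17, higher on 5 of 8 plates). The whole chromosome was at 4.36 ± 0.853 and 4.37 ± 1.23 times the median window, so the lower share of X in KO did not appear on that scale. Both stretches were below the median window in the other cells, at 0.527 times from 120 Mb and 0.707 times before it in WT, and at 0.472 and 0.656 times in KO. The limit at 120 Mb was chosen after these values had been seen.

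Late KO cells placed more of their autosomal label outside genes. Bins of 500 kb without a protein-coding gene held 38.6% of molecules at the lowest plate, 39.3% in the middle and 40.9% at the highest in WT, and 42.5%, 44.8% and 46.3% in KO. The genotypes did not overlap. The means were 39.4% ± 0.710 and 44.7% ± 1.32 (difference 5.30 ± 1.55 percentage points, 8 of 8 plates, exact permutation, adjusted p = 0.0143), and the difference was 5.23 without shared molecules and 5.01 when each chromosome was measured in cells ordered from the other chromosomes. The other cells held 15.6% ± 1.30 and 15.5% ± 1.32 there. The difference between late and other cells was 5.39 ± 2.45 points, above 0 on 8 of 8 plates (exact permutation, adjusted p = 0.0195). Among cells of 10000 to 25000 molecules the late difference was 5.73 points (adjusted p = 0.0176), while the gap to the other cells was 2.00 points and did not pass (exact permutation, adjusted p = 0.281).

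In molecules per cell both kinds of bin were lower in KO, and bins with genes more so. Bins without genes held 10011 ± 2033 molecules in WT and 7384 ± 1373 in KO (log2 -0.43 ± 0.15), and bins with at least 1 gene held 15369 ± 3041 and 9125 ± 1690 (log2 -0.75 ± 0.14; SD, n = 8; exact permutation, adjusted p = 0.0156 for both). Label per kb in protein-coding gene bodies over that in the rest of the autosomes had a log2 ratio of -0.79 ± 0.03 in WT and -0.96 ± 0.04 in KO, with no overlap and KO lower on 8 of 8 plates (adjusted p = 0.0143 by exact permutation). The other cells had 0.10 ± 0.05 and 0.13 ± 0.06, and the late and other cells differed by -0.20 ± 0.10 (8 of 8 plates below 0, adjusted p = 0.0195, exact permutation), or by -0.02 among cells of 10000 to 25000 molecules (adjusted p = 0.954, exact permutation). Bins with 10 or more genes held 2.08% ± 0.114 and 1.74% ± 0.153, lower in KO on 8 of 8 plates (adjusted p = 0.0143, exact permutation). For these bins the late and other cells differed by -0.03 points (exact permutation, adjusted p = 0.914), and by 3.30 points among cells of 10000 to 25000 molecules (adjusted p = 0.0703, same exact test). The gene-body ratio and the share in bins with 10 or more genes come from autosomes, which also placed the cells in order. Over 14 other settings, among them the order from other chromosomes, the late differences ran from -0.22 to -0.13 and from -0.44 to -0.28 points. Both were called in each setting.

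Within genes of at least 100 kb, the side near the transcription end and the side near the start did not differ beyond the spread between plates. The log2 of end over start was -0.01 ± 0.03 in late WT cells and -0.03 ± 0.05 in late KO cells (difference -0.02 ± 0.06, higher on 3 of 8 plates, exact permutation, adjusted p = 0.459). Strand was known for 11776 of 19974 genes from their promoter entries.

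Contigs not placed on a chromosome made up a larger part of the label in late KO cells. They held 2.09% at the lowest plate, 2.28% in the middle and 2.67% at the highest in WT, and 2.87%, 3.44% and 4.77% in KO, with no overlap. The means were 2.34% ± 0.210 and 3.61% ± 0.603 (8 of 8 plates, exact permutation, adjusted p = 0.0143), and the difference was 1.27 points, or 1.08 without shared molecules. In molecules per cell contigs held 705 ± 116 in WT and 713 ± 192 in KO (log2 -0.01 ± 0.20, exact permutation, adjusted p = 0.859), so a difference in number was not detected while the total was lower. Among the other cells contigs held 1.24% ± 0.145 and 1.05% ± 0.192, and 338 ± 46.0 and 204 ± 23.4 molecules per cell. The late difference exceeded that of the other cells by 1.46 ± 0.71 points on 8 of 8 plates (exact permutation, adjusted p = 0.0195).

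The 24 bins of 200 kb with over 3 times the median count were measured apart, and 19 of them held no gene. In late cells the bin at chromosome 10, 41800001 to 42000000 (GRCh38), stood at 599 (WT) and 805 (KO) times the median bin, and that at chromosome 5, 49600001 to 49800000, at 458 and 634 times. Such bins held 4.84% ± 0.724 of autosomal molecules in WT and 6.12% ± 1.85 in KO, higher on 5 of 8 plates (exact permutation, adjusted p = 0.0781). The difference of 1.28 points was 0.64 without shared molecules and -0.11 among cells of 10000 to 25000 molecules (exact permutation, adjusted p = 0.234 and 0.883). Late and other cells differed by 1.58 ± 1.52 points, above 0 on 6 of 8 plates (exact permutation, adjusted p = 0.0446). That call ended when any 1 of the 8 plates was left out (1.27 to 1.82 points) and without shared molecules (0.89 points, exact permutation, adjusted p = 0.203). The bins were chosen by counts pooled over both genotypes, and those on chromosome 10 between 35600001 and 36800000 passed through WT. In the other cells these stood at 4.89 to 6.33 times the median bin in WT and 1.32 to 1.88 times in KO. Such bins lower the KO minus WT difference of the other cells, so the call adds no support. The gap of late to other cells was -0.08 points among cells of 10000 to 25000 molecules.

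Mitochondrial DNA, which is copied outside the S-phase programme, held 0.147% ± 0.0112 of molecules in late WT cells and 0.198% ± 0.0146 in late KO cells, with no overlap (exact permutation, adjusted p = 0.0143). The other cells had 0.153% ± 0.0102 and 0.199% ± 0.0382, and the difference between late and other cells was 0.0032 points (exact permutation, adjusted p = 0.781). Per cell the number was 44.8 ± 8.46 in WT and 38.6 ± 5.91 in KO (log2 -0.20 ± 0.16, exact permutation, adjusted p = 0.0234). Among cells of 10000 to 25000 molecules the difference in share was 0.0101 points and did not pass (exact permutation, adjusted p = 0.623).

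**Figure D2:**
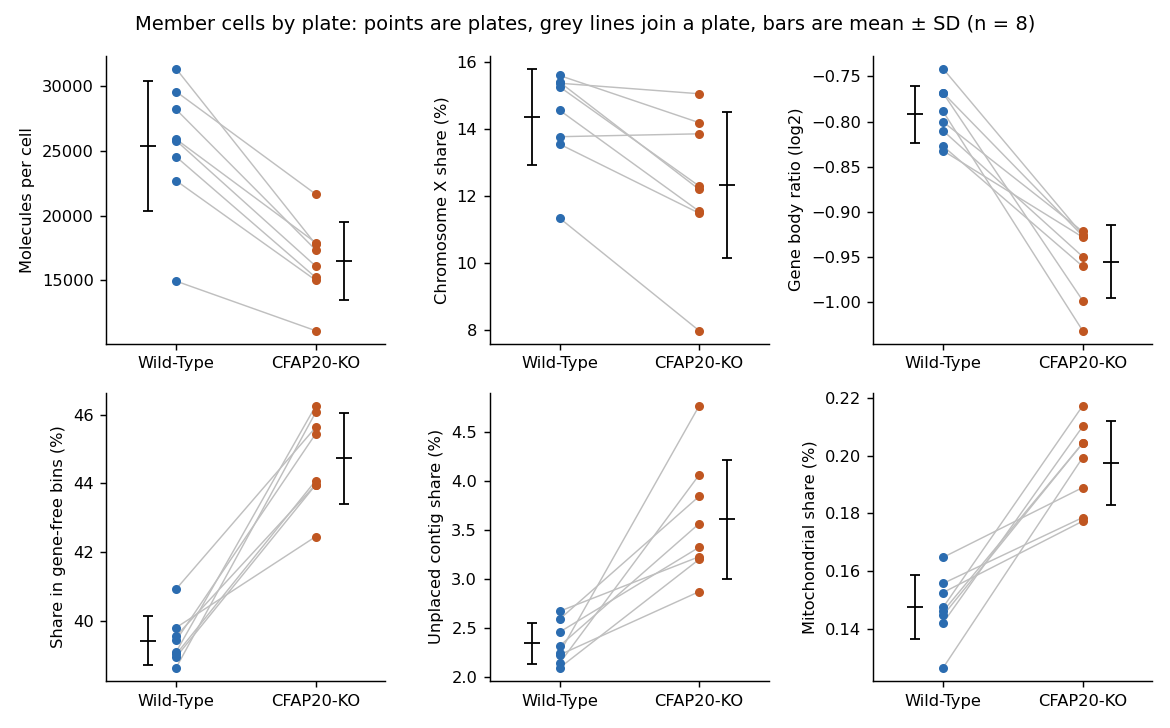
Values of late cells by plate for each genotype: each point is a plate, grey lines join the genotypes of a plate, and bars give mean ± SD (n = 8 plates), with the unit on each vertical axis. KO lies above WT on every plate for the share in bins without genes (42.5% to 46.3% against 38.6% to 40.9%) and below WT on every plate for molecules per cell.

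Over windows of 5 Mb, late KO and WT cells differed in many places and in both directions. In a limma voom fit of 598 windows, with libraries set to their totals, 135 were higher in KO (22.6% of the windows) and 162 lower (27.1%), together 49.7%, at an adjusted p under 0.05. Among them 84 were higher and 107 lower on all 8 plates. Windows lower in KO held a median of 30 genes and stood at 1.05 times the median autosomal window in WT and 0.65 times in KO (medians). Windows higher in KO held 18 genes, and stood at 0.76 times in WT and 1.47 times in KO; all tested windows held 24. Autosomal bins also placed the cells in order. Of the 297 windows called, 285 were called in the same direction with median-ratio scaling, 279 without shared molecules and 266 with the order from other chromosomes. Among cells of 10000 to 25000 molecules 80 windows were higher and 85 lower of 591, and 159 of the 297 windows were called again, with 8 at the opposite sign.

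Late cells differed from the other cells. There 207 of 602 windows (34.4%) were called between the genotypes, 118 higher (19.6%) and 89 lower in KO (14.8%). Of the 162 windows lower in late KO cells, 54 were higher and 27 lower in KO among the other cells; of the 135 higher ones, 4 were higher and 28 lower. The change between late and other cells itself passed for 335 of 598 windows (56%), 154 higher (25.8%) and 181 lower (30.3%), or 201 higher and 130 lower with median-ratio scaling. It passed in the same direction for 141 of the 162 lower windows and 126 of the 135 higher windows. These windows were chosen by the late difference, which is part of that change, so these counts add no support.

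**Figure D3:**
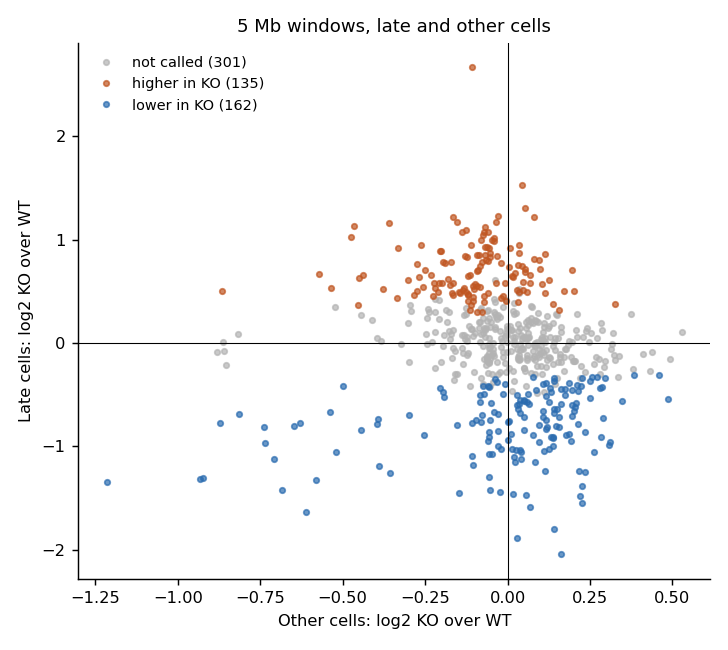
Log2 KO over WT of each 5 Mb window in late cells (vertical axis) against the same in the other cells (horizontal axis), 1 point per window, coloured by the call in late cells. Values run from -2.05 to 2.67 in late cells, and windows lower in late KO cells lie on both sides of 0 among the other cells.

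Called windows often lay side by side. There were 28 runs of 2 or more adjacent higher windows, 79 windows in all, and 37 runs of lower windows with 101 windows. The longest higher run covered chromosome 4 from 115000001 to 145000000 (GRCh38, 78 genes), at 1.27 ± 0.364 times the median window in WT and 2.80 ± 0.294 times in KO. Its WT plates ran from 0.707 to 1.81 and its KO plates from 2.52 to 3.37, with no overlap, and its log2 difference in share was 0.99 ± 0.58 against -0.06 in the other cells. Other higher runs were chromosome 3 from 160000001 to 180000000 (0.98 ± 0.27 against 2.31 ± 0.14 times), chromosome 13 from 80000001 to 90000000 (2.03 ± 0.54 against 4.86 ± 0.70 times, with 6 genes) and chromosome 21 from 5000001 to 30000000 (2.02 ± 0.27 against 3.52 ± 0.52 times). On chromosome 4, 18 of 39 windows were higher and 5 lower; on chromosome 21, 5 of 9 were higher and 0 lower.

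The longest lower run was the end of X already described, 8 windows from 120000001 to 155701995 with 253 genes. Chromosome 7 held 20 lower and 3 higher windows of 32. Its run from 20000001 to 55000000 stood at 1.75 ± 0.306 times in WT and 1.35 ± 0.243 times in KO (log2 of the share -0.58 ± 0.12) with 0.04 ± 0.03 in the other cells, whereas its run from 130000001 to the end was lower in both sets of cells, by a log2 of -0.99 ± 0.19 in late cells and -0.82 ± 0.09 in the other cells. Its runs from 60000001 to 75000000 and from 95000001 to 110000000 were also lower in both sets of cells. Their log2 values were -0.67 ± 0.29 and -0.66 ± 0.31 in late cells, and -0.55 ± 0.20 and -0.23 ± 0.10 in the other cells. The falls of these runs may therefore not be particular to late cells. Chromosome 20 from 5000001 to 25000000 was lower in both sets too, with -1.02 ± 0.36 in late cells and -0.55 ± 0.16 in the other cells. The run on chromosome 14 from 65000001 to 75000000 had a narrow spread, at 0.54 ± 0.05 times in WT and 0.26 ± 0.03 times in KO (-1.26 ± 0.10, and -0.04 in the other cells).

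Single windows gave the extremes. The window at chromosome 6, 25000001 to 30000000, had the greatest fall, by a log2 of -2.05 ± 0.17 (SE), and the one at chromosome 1, 230000001 to 235000000, had -1.80 ± 0.16. At the upper end chromosome 9, 45000001 to 50000000, with a mean of 19.7 molecules per library, had 2.67 ± 0.28 and chromosome 6, 140000001 to 145000000, had 1.53 ± 0.22. The limma voom adjusted p was 3.7e-07 for both lower windows and 1.2e-06 and 2.4e-05 for the higher ones. For windows, as for genes, the minimum of molecules was a mean over both genotypes. With its low mean and large rise, the chromosome 9 window may have passed that minimum through KO alone. Its place at the upper end and its p-value are therefore a description and add no support.

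Protein-coding genes were tested the same way. Of 1218 genes with a mean of at least 10 molecules per library, 91 were higher in late KO cells (7.47% of those tested) and 281 lower (23.1%), together 30.5%, with a median log2 of -0.25 over all genes tested. With median-ratio scaling the median was 0.01, a shift of 0.26, and the counts were 167 higher and 198 lower. Directions of genes near 0 therefore depend on the scaling, and each gene change below stands beside a median gene of -0.25. Nearby genes share replicated DNA and are not independent. Among the other cells 408 of 8164 genes (5%) were called, 260 higher (3.18%) and 148 lower (1.81%). The change between late and other cells passed for 519 of 1137 genes (45.6%), 118 higher (10.4%) and 401 lower (35.3%), or 255 higher and 244 lower with median-ratio scaling. Of the 281 lower genes, 103 were called higher and 14 lower in the other KO cells; of the 91 higher genes, 13 were called lower and 3 higher. The genes tested in late cells stood higher in the other KO cells as a set. Their median log2 there was 0.18, against -0.03 over the 8164 genes. The shares over those 8164 genes are therefore not a like background for these counts. Fewer of the other KO cells than of the other WT cells lay in band 1 of the order, and the part of this in these values was not tested. Of the 372 called genes, 369 were tested with the order from other chromosomes and 346 of these were called again in the same direction, and 354 were tested without shared molecules and 323 of these were called again. Among cells of 10000 to 25000 molecules 39 genes were higher and 67 lower of 635, and 100 of the 199 called genes tested there were called again.

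The minimum was a mean over both genotypes, so a gene could pass through the genotype where it was high. Of the 1218 genes, 282 had a mean of at least 10 molecules in WT alone, of which 125 were called lower, and 24 had it in KO alone, of which 14 were called higher. Genes let in this way were partly chosen by the difference, and their calls add no support to the direction of the counts. The 912 genes with that mean in both genotypes held 77 called higher (8.44%) and 156 called lower (17.1%), with a median log2 of -0.07.

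The 10 genes with the greatest fall in late KO cells were SIPA1L2, NTRK3, SLC22A15, PLXNA4, CA8, ZFP2, GRIK3, ZNF273, SLC17A1 and NAA11. All 10 passed the minimum through WT alone, with 11 to 48 molecules each over the 8 KO libraries. Their place at the lower end is therefore a description. The same holds for the p-values and plate overlaps given for them below, which add no support. SIPA1L2, of a family of Rap GTPase regulators (chromosome 1, 232397965 to 232630496, minus strand), had 67.5, 219 and 285 CPM (molecules over the gene per 1000000 of the library's molecules on autosomes and X) at the lowest, middle and highest WT plate and 0, 8.46 and 25.6 in KO. Every KO plate lay below every WT plate. The log2 change was -3.75 ± 0.48 (SE; limma voom adjusted p = 9.5e-08), with 671 molecules in WT and 31 in KO. NTRK3, the neurotrophin-3 receptor TrkC (chromosome 15, 87859751 to 88256739, minus strand), had 115, 252 and 311 CPM in WT and 12.2, 14.6 and 55.4 in KO. Again the genotypes did not overlap, and the log2 change was -3.51 ± 0.44 (limma voom adjusted p = 6.8e-08).

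These genes were not low in KO throughout S phase. SIPA1L2 had 59.2, 135 and 197 CPM in bands 2, 3 and 4 of the order in WT, and 157, 210 and 12.5 in KO. NTRK3 had 59.3, 267 and 246 in WT, and 182, 331 and 19.9 in KO. Over the other cells as a whole both were higher in KO, by a log2 of 0.89 ± 0.17 (SE) and 0.79 ± 0.14, and the change between late and other cells was -4.70 ± 0.50 and -4.41 ± 0.43 (limma voom adjusted p = 7.8e-10 and 2.5e-10). Fewer of the other KO cells than of the other WT cells lay in band 1, and the part of this was not tested. SLC22A15, a solute carrier of the organic cation transporter family, and GRIK3, a kainate receptor subunit, stood higher in KO in band 2. The levels were 91.3 against 26.8 and 176 against 61.6 CPM. In band 4 both stood lower, at 4.08 against 63.6 and 10.9 against 112. Over the other cells as a whole they had 0.60 ± 0.25 and 0.25 ± 0.16 (SE) and were not called (limma voom adjusted p = 0.202 and 0.534).

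PLXNA4, a plexin that receives semaphorin signals, followed another course. It had 244, 205 and 122 CPM in bands 2 to 4 in WT and 129, 32.3 and 10.2 in KO. It was lower in KO in late cells by a log2 of -3.35 ± 0.52 (SE) and in the other cells by -1.14 ± 0.15 (limma voom adjusted p = 2.8e-06 and 1.6e-09). It lies in the run at the end of chromosome 7. The remaining 5 changed by -3.33 ± 0.63 (CA8, a carbonic anhydrase-related protein), -3.27 ± 0.58 (ZFP2) and -3.04 ± 0.62 (ZNF273), both zinc finger proteins, -2.95 ± 0.55 (SLC17A1, a phosphate transporter, in the chromosome 6 window named above) and -2.92 ± 0.51 (NAA11, an N-terminal acetyltransferase), with limma voom adjusted p from 1.7e-05 to 0.000167. Plates of the genotypes overlapped for 3 of the 10 genes. The genes were picked as the most extreme and no share over all tested genes stands beside this count, so it is a description. ZFP2, with 152 molecules in WT and 19 in KO, reached 42.9 CPM on the highest KO plate, above the lowest WT plate. ZNF273 reached 53.8 CPM on the highest KO plate against 16.6 CPM on the lowest WT plate, and CA8 17.2 against 3.20 CPM, and both were higher in KO on 1 plate.

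The greatest changes between late and other cells were those of ZFP2 (-5.91 ± 0.70), CA8 (-5.13 ± 0.68), ZNF454 (-5.00 ± 0.69), a zinc finger gene next to ZFP2, SIPA1L2 (-4.70 ± 0.50) and C1orf87 (-4.59 ± 0.63). ZNF454 and C1orf87 were lower in late KO cells by -2.87 ± 0.60 and -2.74 ± 0.54 and higher in the other KO cells by 1.92 ± 0.41 and 1.60 ± 0.28 (SE). In the upward direction these were HDAC8, PIN4, NHSL2, METTL25 and KCTD8, the last a subunit associated with GABA-B receptors, which had 0.94 ± 0.25 in late cells, -2.05 ± 0.27 in the other cells and a change of 3.02 ± 0.43.

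The 9 genes with the greatest rise were METTL25, HDAC8, PIN4, COL11A1, NHSL2, ARAP2, VRK2, MEOX2 and GPM6B. HDAC8 and NHSL2 had a mean of at least 10 molecules per library in both genotypes; the other 7 passed the minimum through KO alone, with 37 to 78 molecules each over the 8 WT libraries. For those 7 the place at the upper end, the p-values and the plate overlaps are a description and add no support. METTL25 was the only 1 of the 9 whose plates did not overlap between the genotypes, a count that again has no share over all tested genes beside it. METTL25, a methyltransferase-like protein (chromosome 12, 82358529 to 82479239, plus strand), had 0, 8.96 and 39.0 CPM at the lowest, middle and highest WT plate and 41.2, 90.6 and 168 in KO. The log2 change was 2.81 ± 0.51 (SE; limma voom adjusted p = 3.0e-05), from 49 molecules in WT and 206 in KO. In band 3 it had 118 CPM in WT and 99.3 in KO. In band 4 it had 12.6 CPM in WT and 92.9 CPM in KO.

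Of these 9 genes, 4 lay on X, which held 235 of the 1218 genes tested. HDAC8, PIN4 and NHSL2 lie side by side, so this count is a description. HDAC8, a deacetylase that acts on cohesin (72329516 to 72572843, minus strand), had 3.85, 22.4 and 114 CPM in WT and 82.8, 155 and 303 in KO, so the ranges overlapped (log2 2.69 ± 0.43, SE; limma voom adjusted p = 4.0e-06). In bands 1 to 3 it had 113, 128 and 81.2 in WT and 86.3, 81.2 and 24.0 in KO. PIN4, a peptidyl-prolyl isomerase, and NHSL2 lie beside it, from 71910845 on, and changed by 2.64 ± 0.56 and 2.14 ± 0.47. GPM6B, a membrane glycoprotein of the proteolipid family, changed by 1.86 ± 0.51. All 4 lie before 120 Mb.

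Of the other autosomal genes, COL11A1, a chain of type XI collagen, changed by 2.32 ± 0.45, with 103 and 163 CPM in bands 2 and 3 and 20.9 in band 4 in WT, and 56.4, 250 and 97.8 in KO. ARAP2, a regulator of small GTPases, changed by 2.12 ± 0.56, VRK2, a kinase, by 1.92 ± 0.51 and MEOX2, a homeobox factor, by 1.88 ± 0.52 (SE; limma voom adjusted p from 8.2e-05 to 0.00406). ARAP2 had 263 CPM in KO in band 3 against 97.2 in WT.

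**Figure D4:**
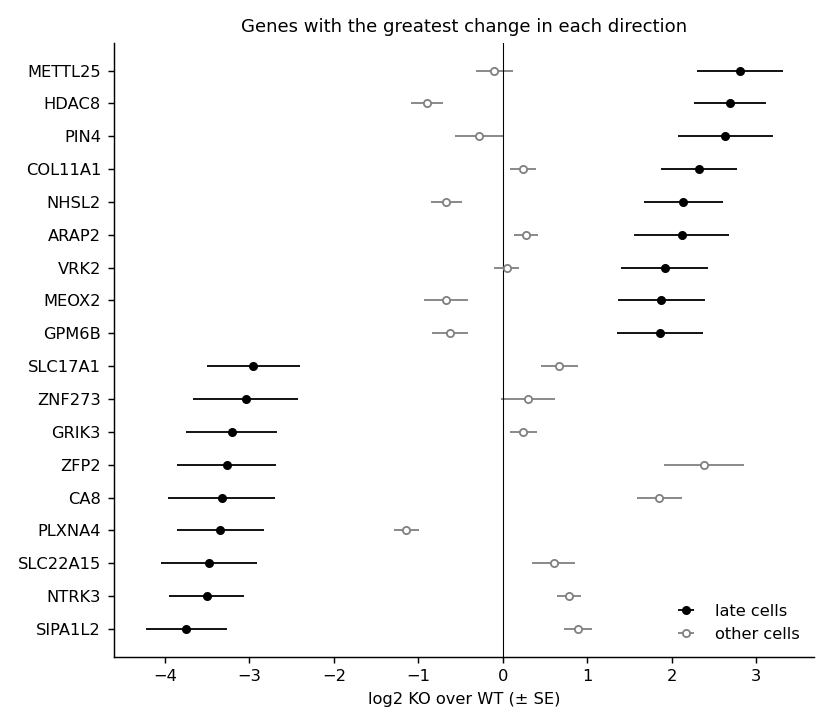
Log2 KO over WT (horizontal axis, ± SE) of the 9 genes with the greatest fall and the 9 with the greatest rise in late cells, filled for late cells and open for the other cells. The late values run from -3.75 for SIPA1L2 to 2.81 for METTL25, and SIPA1L2 and NTRK3, among others, have values of the opposite sign in the other cells.

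**Figure D5:**
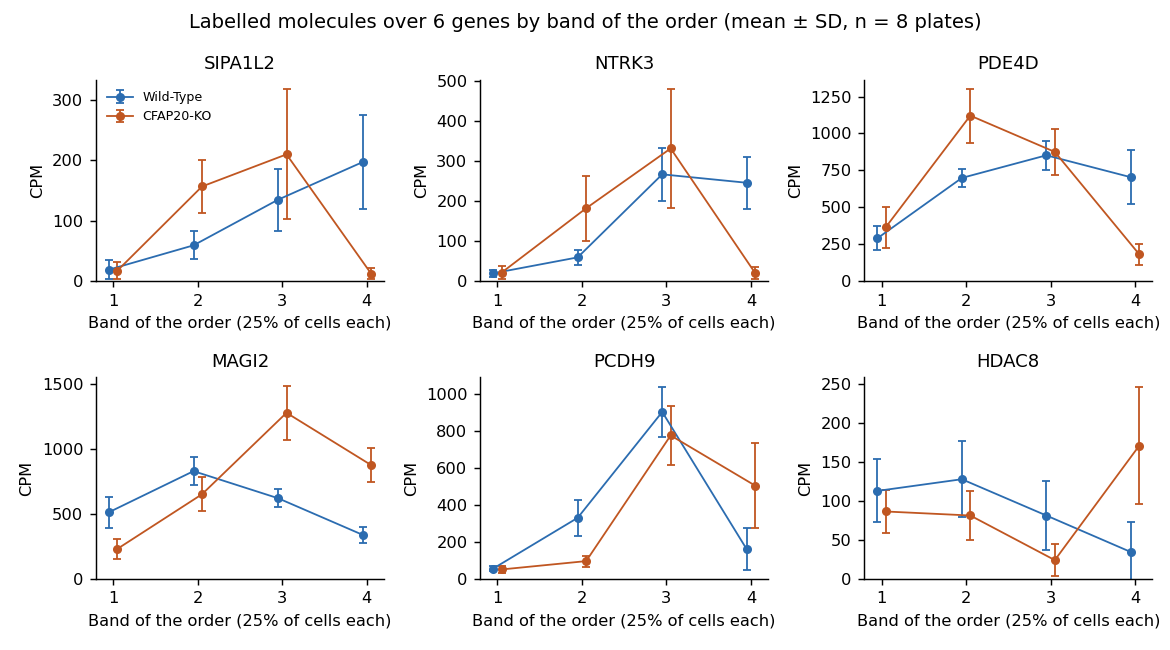
Labelled molecules over the gene, in CPM (vertical axes, mean ± SD, n = 8 plates) over SIPA1L2, NTRK3, PDE4D, MAGI2, PCDH9 and HDAC8 in bands 1 to 4 of the order (horizontal axes), by genotype. SIPA1L2 and NTRK3 are at 12.5 and 19.9 in KO in band 4 and at 197 and 246 in WT, and MAGI2, PCDH9 and HDAC8 are higher in KO in band 4.

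On X the calls differed by position. Of 235 X genes tested, 12 were higher and 43 lower in late KO cells, where all genes tested had 7.47% higher and 23.1% lower. Up to 120 Mb, 12 of 170 were higher and 2 lower, with a median log2 of 0.05; from 120 Mb on, 0 of 65 were higher and 41 lower, with a median of -1.05. The medians in the other cells were -0.09 and -0.10.

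Genes of common fragile sites are long and often replicate late. All 27 in the list were tested and held 153942 molecules; 6 were higher in KO, 7 lower and 14 not called, where all genes tested had 7.47% higher and 23.1% lower, with a median log2 of 0.02 against -0.25 over all genes. With median-ratio scaling 10 were higher and 4 lower, with a median of 0.28. MAGI2, a scaffold protein of cell junctions (chromosome 7, 78017055 to 79453667, minus strand), had 218, 336 and 432 CPM in WT and 656, 900 and 1017 in KO. The genotypes did not overlap (log2 1.31 ± 0.18, SE; limma voom adjusted p = 2.5e-07). ERBB4, a receptor of neuregulins, changed by 1.15 ± 0.19, and CCSER1 and LRP1B by 0.99 ± 0.17 and 0.93 ± 0.16; THSD7A changed by 0.78 ± 0.28.

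PDE4D, a cyclic AMP phosphodiesterase (chromosome 5, 58969038 to 60522128), had 371, 737 and 946 CPM in late WT cells and 105, 147 and 327 in late KO cells. The genotypes did not overlap, and the log2 change was -1.86 ± 0.23 (SE; limma voom adjusted p = 6.8e-08). Its highest band was band 3 in WT, at 852, and band 2 in KO, at 1121, and it was higher in the other KO cells by 0.42 ± 0.06. EXOC4, an exocyst subunit on chromosome 7, changed by -1.65 ± 0.27, CNTNAP2 by -0.90 ± 0.13 and DAB1, a Reelin adaptor, by -0.76 ± 0.18. EXOC4 and CNTNAP2 lie in the run at the end of chromosome 7. That run was lower in KO by a log2 of -0.99 ± 0.19 in late cells and -0.82 ± 0.09 in the other cells. The changes of EXOC4 and CNTNAP2 may therefore not be particular to late cells, and their cause was not tested. AUTS2 and MACROD2 changed by -0.56 and -0.52 and were not called with median-ratio scaling. FHIT, WWOX, CSMD1 and NBEA had values of 0.00 to 0.02 and were not called.

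Of 26 genes of synapses and neural adhesion, 24 were tested; 6 were higher in KO, 1 lower and 17 not called (median 0.11), where all genes tested had 7.47% higher and 23.1% lower. With median-ratio scaling 13 were higher and 1 lower (median 0.37). PCDH9, a protocadherin (chromosome 13, 66302834 to 67230336, minus strand), had 9.46, 142 and 373 CPM in WT and 168, 544 and 731 in KO, with an overlap (log2 1.59 ± 0.25, SE; limma voom adjusted p = 3.5e-06). In band 3 the levels were 904 and 776, so the fall from band 3 to band 4 was the greater in WT, to 160 against 504. GRIA4 and GRIK2, glutamate receptor subunits, changed by 1.47 ± 0.38 (0.83 and not called when cells were ranked within genotype) and 1.08 ± 0.25, CDH18, a cadherin, by 1.15 ± 0.22, CNTN5, a contactin, by 0.90 ± 0.16 and ROBO1, a Slit receptor, by 0.64 ± 0.21. NTM, a neural adhesion protein on chromosome 11, changed by -1.62 ± 0.35 (limma voom adjusted p = 0.000286), while its neighbour OPCML had -0.40 ± 0.18 (adjusted p = 0.081).

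All 22 listed long or large X genes were tested; 1 was higher in KO, 7 lower and 14 not called (median -0.26), near the 7.47% higher, the 23.1% lower and the median of -0.25 over all genes tested. With median-ratio scaling 4 were higher and 2 lower and the median was 0.00, so this direction depended on the scaling. These counts do not split the list at 120 Mb. Among all X genes tested, 41 of 65 were lower from there on and 2 of 170 before it. FGF13, a fibroblast growth factor homologue (138614727 to 139205023), had 646, 1164 and 1514 CPM in WT and 322, 501 and 750 in KO. The ranges overlapped, and the log2 change was -1.05 ± 0.18 (SE; limma voom adjusted p = 9.4e-06), against 0.65 ± 0.14 in the other cells. OCRL, a phosphoinositide phosphatase, had -1.39 ± 0.46 and lost its call without plate 3 (-1.17) or 6 (-1.23) and with median-ratio scaling. IL1RAPL1, a synaptic receptor, was higher by 0.43 ± 0.15. HUWE1, a ubiquitin ligase, and PHEX, a peptidase, had 0.59 ± 0.40 and 0.62 ± 0.35 and were not called.

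The other lists had few genes with enough molecules in late cells. Of 24 matrix and cytoskeleton genes of this line 2 passed the minimum of molecules: TIMP3, an inhibitor of metalloproteinases, was higher by 1.35 ± 0.48 (SE; limma voom adjusted p = 0.0274), and COL5A1, a collagen chain, had -0.94 ± 0.40 (adjusted p = 0.0716). The TIMP3 call ended without plate 2 (1.21), 3 (1.30), 4 (1.11) or 7 (1.27), and COL5A1 was called lower without plate 2 (-1.13) or 4 (-1.09). Of 29 replisome and checkpoint genes 2 were tested, POLA1, the catalytic subunit of DNA polymerase alpha, at -0.17 ± 0.24 and ORC4, of the origin recognition complex, at 0.40 ± 0.52, neither called. Of 26 lamina and heterochromatin genes only ATRX, a chromatin remodeller on X, was tested, at -0.42 ± 0.32. Of 30 genes of RNA polymerase II elongation and repair 29 were in the annotation and 0 were tested; they held 303 molecules in all. CFAP20 itself (chromosome 16, 58113592 to 58129381) held 1 molecule, in WT, which cannot check the knockout.

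Per kb, label in late cells was very uneven between long genes. Among 3351 protein-coding genes of at least 100 kb the median was 0.238 molecules per kb over all late cells. The highest were ANKRD30A at 16.6, NRG3, a neuregulin, at 11.8, TCERG1L at 11.4, MGMT, a DNA repair methyltransferase, at 10.9 and AFF2 at 10.0 molecules per kb. This order pools the genotypes. ANKRD30A was the highest in WT, with 1970 molecules, and had 362 molecules or 2.58 per kb in KO, where 121 genes stood above it and MGMT (4.72), NRG3 (4.65) and TCERG1L (4.28) were the 3 highest. Of the 50 highest, 7 lay on X and 7 on chromosome 10. No share of these chromosomes among the 3351 genes stands beside the counts, so they are a description. No molecule was found over 63 genes, the longest of which were CACNA1C, a calcium channel subunit, PTPRK, ADAMTSL3, UNC79 and ITGA9.

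Of these 5 highest genes, 2 differed between the genotypes. ANKRD30A (chromosome 10, 37125598 to 37265894) had 231, 709 and 1065 CPM in WT and 124, 138 and 255 in KO, and in band 3 only 49.9 and 34.5. The ranges overlapped, and the log2 change was -1.96 ± 0.25 (SE; limma voom adjusted p = 6.8e-08). Near this gene, bins of very high count between 35600001 and 36800000 were higher in WT among the other cells too. There they stood at 4.89 to 6.33 times the median bin in WT and 1.32 to 1.88 times in KO. In late cells they stood at 2.60 to 12.9 times in WT and 1.41 to 2.81 times in KO. AFF2, a nuclear protein gene at the end of X (148500617 to 149000663), changed by -0.73 ± 0.17 (limma voom adjusted p = 0.00087). NRG3, TCERG1L and MGMT had -0.10 ± 0.13, -0.20 ± 0.19 and 0.11 ± 0.18 and were not called, with levels of 2487 ± 524 and 2335 ± 652 CPM for NRG3.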

How the data were processed

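EdU-labelled DNA was sequenced from single RPE-1 hTERT cells on 8 plates. The deposited tables list, per the file headers, a cell name, a chromosome, a base position, a signed length and a treatment (the genotype) for each molecule, and they hold no scaled value. Positions refer to GRCh38, which the submitters' processing notes name; no aligner or duplicate handling is named in them. Gene coordinates came from a RefSeq table of that build (19974 protein-coding genes), and overlapping genes share molecules.

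Each deposited row counted as 1 molecule; 5.52% of the autosomal molecules of late cells were repeats of cell, position and direction. The order used 5423 of 5758 bins. Contrasts of single values were exact two-sided sign-flip permutations over plates, adjusted by Benjamini-Hochberg within families of 11 values, 10 differences between late and other cells, 8 values in parts of the late range and 6 added values. Genes and windows with a mean of at least 10 molecules per library were fitted with limma 3.58.1 (voom, offset 0.5, plate as block, total scaling) and called at an adjusted p under 0.05; fits of late against other cells needed that mean in both. Levels of windows are relative to the library's median autosomal window. Labelled regions came from pair excess at 1 to 100 kb against 400 to 500 kb. Code was tested on simulated data. Python 3.11.15, numpy 2.4.6, scipy 1.17.1 and pandas 2.3.3 were used.

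The titles put both genotypes on every plate, so plates paired the libraries; over 591 genes the mean correlation of WT and KO deviations was 0.0872 within a plate (-0.100 to 0.313) and -0.0124 across plates, and 4 of 8 WT libraries correlated best with their own plate.

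Genes were named by rule: the 10 greatest calls and the 5 greatest changes between late and other cells in each direction, the 2 highest and 2 lowest of each list, the 5 with most and 5 with fewest molecules per kb, and CFAP20; windows by runs of at least 2. Some genes that the rule or the lists take in are not reported here by name. Other list members and the single windows were chosen after their values were seen. The members and the gene lists were chosen with earlier results of these data known. Alternatives covered the minimum of molecules, bin size, the start of the late range, ranking within genotype, thinning, repeated rows, order from other chromosomes, scaling, filters and each plate left out; cells of 10000 to 25000 molecules, shared molecules and left-out chromosomes were added after seeing the data.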

Additional observations from a re-analysis of the deposited data

Results flagged for a closer look

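The KO minus WT difference in track width of late cells on plate 3 was 1.94 kb, apart from the other 7 plates, and the number of labelled regions per late WT cell on plate 6 was 2967, apart from the other WT plates. Such gaps were looked for in 33 groups of 8 plates, and chance gives them in about 1 in 20 groups. The KO minus WT difference itself differed between late cells and the other cells in an exact permutation test over plates for 7 measures: the log2 number of molecules per cell (-0.15), track width (-1.49 kb), the X share (-1.77 points), the log2 gene-body ratio (-0.20), the share in bins without genes (5.39 points), the share in high-count bins (1.58 points) and the share on unplaced contigs (1.46 points). Some high-count bins passed their limit through WT, so that call adds no support. Explanations of these differences were not tested.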

How the results depend on the processing

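Of the values recomputed under other settings than a left-out plate, 351 stayed on their side of the threshold (counts: within 1.5 times), 41 fell short of it, 7 passed it, 23 moved and 2 reversed; with a plate left out 204 stayed and 28 did not. Of those that stayed, 17 values of 5 results and, with a plate left out, 7 values of 2 results, none of them called, had the opposite sign. Here "gap" is the late minus the other cells' difference; causes were not tested. Track width (0.49 kb) was not called with at least 10000 molecules (0.46), positions over 0.80 (0.46), ranks within genotype (0.33), repeated rows once (0.80), cells of 10000 to 25000 molecules (0.22), without chromosomes 7, 10, 20 and X (0.12), without chromosomes 10 and 12 (0.10) or without high-count bins (1.02); its gap was not called after thinning to 5000 (-1.33), without shared molecules (-0.75) or without high-count bins (-1.15). Without the replicate block, width (0.49) and the X share (-2.03) were not called and regions (-0.64) were; it changed no other call of a single value. Regions had -0.14 in depth-matched cells of 10000 to 25000 molecules, with a gap of 0.29, and were called lower with ranks within genotype (-0.81), repeated rows once (-0.42), without shared molecules (-0.41) and without high-count bins (-0.28), where their gap reversed to 0.14.

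The X share lost its call at positions over 0.80 (-1.61), after thinning (-1.28) and in depth-matched cells of 10000 to 25000 molecules (-3.74). Its gap lost it at positions over 0.70 (-1.61) and 0.80 (-1.42), ranks within genotype (-0.84), thinning (-1.08), repeated rows once (-1.97), depth-matched cells (-4.01) and without shared molecules (-2.0). The gap in molecules lost it with at least 3000 (-0.088) or 10000 (-0.13) molecules, positions over 0.80 (-0.15), repeated rows once (-0.093) and without shared molecules (-0.025). The mitochondrial share lost it after thinning (0.045) and in depth-matched cells (0.010), where the gene-body gap (-0.024) and the gap in bins without genes (2.00) did too. High-count bins were called with ranks within genotype (1.78) and repeated rows once (0.77). Their gap was not called with at least 3000 (1.25) or 10000 (0.92) molecules, 200 kb bins (1.48), positions over 0.70 (1.11) or 0.80 (1.84), thinning (1.37), the order from other chromosomes (1.39), without chromosomes 7, 10, 20 and X (0.99) and without shared molecules (0.89), and reversed in depth-matched cells (-0.082).

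Called windows, higher and lower, were 482 and 481 for 1 Mb windows (gap 654 and 640) and 80 and 85 in depth-matched cells (gap, higher, 100). Called genes were 43 and 103 after thinning (gap 43 and 126), 39 and 67 in depth-matched cells (33 and 172), 59 and 152 with a mean of at least 30 (71 and 204), 167 higher with median-ratio scaling (255 and 244), and 78 higher for the gap at positions over 0.80. With single plates left out, width was 0.28 to 0.57, its gap -1.71 to -1.36, the X gap -2.11 to -1.53 and the high-count gap 1.27 to 1.82; 7 plates cannot give an exact p under 0.0156. Molecules per cell were not compared after thinning, which fixes them. Libraries of 66543 to 532604 molecules limit genes of low count.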
